A study of Mus musculus with 8 samples.

Results

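The Rab GTPases are the largest family of small Ras-like GTPases and the principal markers of membrane identity in the cell. Their transcripts were read here in the cerebral cortex of senescence-accelerated mice. The members are all probe sets of the array table that carry a single gene symbol made of Rab, a number and at most a letter and a digit, and 1 further Rab gene is not analysed here. This gave 128 of 45037 probe sets, which stand for 58 genes of 19761. A total of 24 genes had 1 probe set and 34 had 2 or more, with a maximum of 7 for Rab2a and for Rab14. The rule used names only and no measured value.

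RNA was measured in 8 samples, each on 1 Affymetrix MG-430 PM array, with 2 arrays per group. The groups were cortex of 1-year-old SAMP8 males, 16-week-old SAMP8 males, 1-year-old SAMR1 males and 16-week-old SAMR1 males, with no treatment. SAMP8 is an inbred line selected for accelerated senescence with learning and memory deficits, and SAMR1 is the related senescence-resistant line used as its control, so that a difference between them is one between 2 inbred strains and not that of a single allele. In the genotype field the SAMP8 samples carry the name SAMR8, and the grouping followed the titles, which give SAMP8. The study set 1 year against 16 weeks within SAMP8 (accelerated aging) and within SAMR1 (physiological aging), and SAMP8 against SAMR1 at 1 year (late events) and at 16 weeks (early events).

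A Rab protein cycles between a GDP-bound form, held soluble by GDP dissociation inhibitor (GDI), and a GTP-bound form that sits on a membrane through its prenyl tails. Guanine nucleotide exchange factors (GEFs) switch a Rab on at a given membrane, GTPase-activating proteins (GAPs) switch it off, and the active form recruits effectors such as tethers, motors and lipid kinases. Different Rabs mark different steps: Rab1 and Rab2 between endoplasmic reticulum (ER) and Golgi, Rab5 on early endosomes, Rab4, Rab11 and Rab14 on recycling routes, Rab7 on late endosomes, and the Rab3 and Rab27 groups on secretory and synaptic vesicles. Neurons depend on these routes for transmitter release, receptor recycling and axonal transport.

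Values are log2 signals after robust multichip averaging (RMA), so that a difference of 1 is a doubling of signal. Signals of different probe sets cannot be ranked against each other, because each probe set binds with its own strength. Of the 128 members, 82 had a mean signal above 5 over the 8 arrays, and no filter was set in the main test. The brightest probe set of a gene is the one with the highest mean. Array medians lay between 4.32 and 4.36, and the median SD of the members within a group was 0.042 to 0.071, close to that of all probe sets (0.050 to 0.064). Markers of cortical excitatory neurons were present on all arrays (8 of 8 listed genes measured, log2 of their summed signal 11.58 to 11.85). Some markers of cortical cell types were called (limma, adjusted p under 0.05). Fezf2 and Vip, of neurons, fell at 1 year in SAMP8 (−0.51 and −0.63), and Vip was higher in SAMP8 at 16 weeks (0.90). Mog, of oligodendrocytes, fell at 1 year in SAMR1 (−0.565). At 16 weeks Mog and Cnp were lower in SAMP8 (−0.625 and −0.38). Microglial Aif1 was higher in SAMP8 at 1 year (0.505), and no astrocyte or endothelial marker was called. Markers of neighbouring tissue differed between arrays. The summed signal of 6 choroid plexus genes, most of it from Ttr, was 12.04 and 11.40 in SAMP8 at 1 year, 8.29 and 8.77 in SAMP8 at 16 weeks, 12.16 and 12.16 in SAMR1 at 1 year, and 11.86 and 8.64 in SAMR1 at 16 weeks. The sum of 6 hypothalamic genes was 8.11 and 7.97 in SAMR1 at 16 weeks and 6.70 to 7.05 on all 6 other arrays. In SAMR1 at 16 weeks Pmch read 7.21 and 4.93 (3.56 to 3.76 elsewhere) and Avp 4.96 and 6.53 (3.29 to 3.61 elsewhere). There, Oxt exceeded the other arrays in replicate 2 only (6.54) and Hcrt in replicate 1 only (3.74). Pomc and Agrp lay within the range of the other arrays. SAMR1 16 weeks replicate 1 stood apart on 2 further sums, with 9.30 for 6 striatal genes against 10.39 to 10.69 elsewhere and 9.69 for 6 thalamic genes against 8.88 to 9.20. The olfactory bulb sum was 8.87 in SAMP8 1 year replicate 2 and 8.66 in SAMP8 16 weeks replicate 1, against at most 7.97 elsewhere. Of these genes, 2 hypothalamic and 1 thalamic were called lower in physiological aging, 1 hypothalamic and 2 thalamic were called lower in SAMP8 at 16 weeks, and none of the choroid plexus list was called. The part of all these markers in the Rab results was not tested. In these bulk samples, fewer cells of a type and less RNA per cell cannot be told apart.

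Between ages, few Rab probe sets passed the test, and the gene with the clearest change was Rab4a. In SAMP8, 2 of 128 probe sets rose and 3 fell at 1 year (limma, Benjamini-Hochberg adjusted p under 0.05 over all 45037 probe sets). These shares, 1.56% and 2.34%, stood against 2.26% up and 2.8% down among all probe sets, below this background. Physiological aging in SAMR1 brought 7 rises and 3 falls. These shares were 5.47% and 2.34%, against 2.63% up and 2.85% down among all probe sets. The 10 probe sets called in SAMR1 belonged to 8 genes and the 5 called in SAMP8 to 4 genes, and 13 probe sets of 10 genes were called in at least 1 strain. The median difference of the members was −0.03 in SAMP8 and −0.01 in SAMR1, against 0 and −0.01 over all probe sets. Counted on the brightest probe set of each of the 58 genes, 0 rose and 1 fell in SAMP8 (1.72% down, against 1.41% up and 3.68% down over all genes), and 2 rose and 2 fell in SAMR1 (3.45% each way, against 1.39% up and 3.78% down). At the threshold named by the study, an unadjusted p under 0.05 with a fold above 1.1, the limma fit called 30 members in SAMP8 (23.4%, against 23.1% of all probe sets) and 41 in SAMR1 (32.0%, against 23.5%). The counts rest on few arrays, and the share of all probe sets called was not computed for the fits that left out an array. Without either SAMP8 1-year array 0 members were called in SAMP8, and without SAMP8 16 weeks replicate 1 or 2 there were 2 and 0. Without either SAMR1 16-week array there were 10, and without either SAMR1 1-year array 3. In SAMR1, 0 and 1 members were called without SAMR1 1 year replicate 1 and 2, and 5 without either SAMP8 1-year array.

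**Figure D1:**
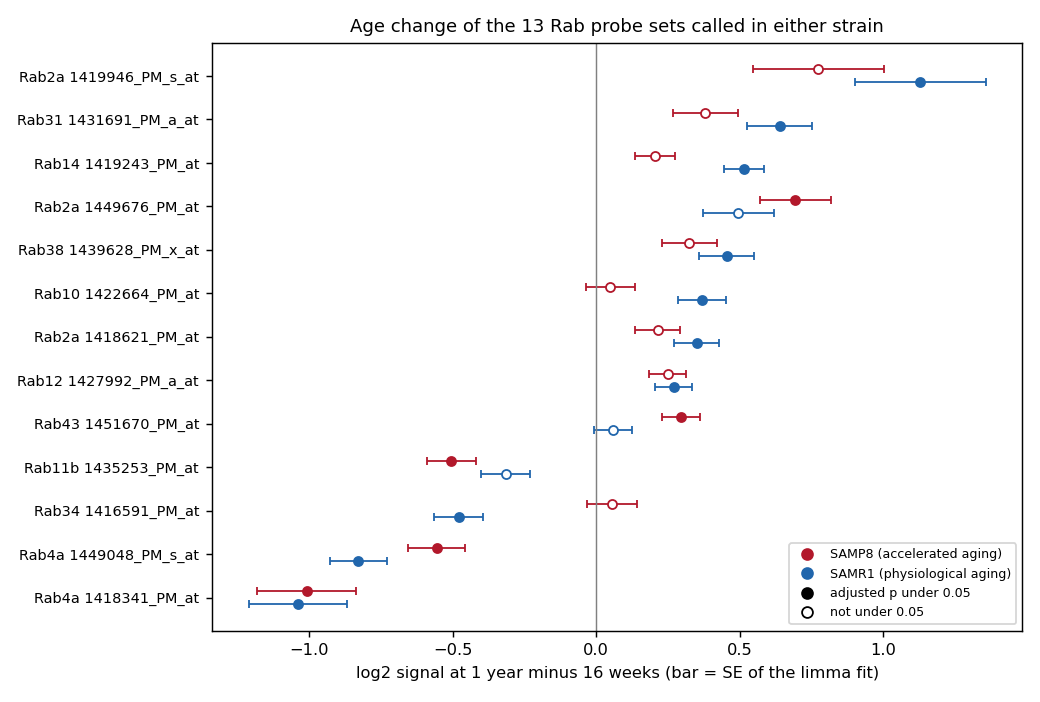
Difference in log2 signal between 1 year and 16 weeks for the 13 Rab probe sets called in at least 1 strain, in SAMP8 (red, upper point of each pair) and SAMR1 (blue, lower point), with the SE of the limma fit as bars. Filled points had an adjusted p under 0.05, and both Rab4a probe sets are filled in both strains.

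Among the Rabs of endosome recycling (9 genes, 20 probe sets), Rab4a fell at 1 year on both of its probe sets and in both strains. Rab4a drives the fast return of receptors from early endosomes to the plasma membrane. On the brightest probe set, 1449048_PM_s_at, the signals were 6.66 and 6.79 in SAMP8 at 1 year and 7.25 and 7.31 at 16 weeks. In SAMR1 they were 6.60 and 6.69 at 1 year and 7.33 and 7.62 at 16 weeks. All 4 arrays of 1-year-old mice lay below all 4 arrays of 16-week-old mice. The difference was −0.56 in SAMP8 (SE 0.099, adjusted p = 0.0244, a ratio of 0.681) and −0.83 in SAMR1 (SE 0.099, adjusted p = 0.00863, a ratio of 0.563) by limma.

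The dimmer Rab4a probe set, 1418341_PM_at, read 5.21 and 5.27 in SAMP8 at 1 year and 6.25 and 6.25 at 16 weeks. In SAMR1 it read 5.04 and 5.55 at 1 year and 6.12 and 6.55 at 16 weeks. Ages did not overlap in either strain here as well. The difference was −1.01 in SAMP8 (SE 0.17, adjusted p = 0.0215, a ratio of 0.497) and −1.04 in SAMR1 (SE 0.17, adjusted p = 0.0178, a ratio of 0.486) by limma. This was the largest fall of any Rab probe set in each strain. The strains were close to each other at either age on both probe sets, with SAMP8 minus SAMR1 between −0.20 and 0.08 and adjusted p of 0.432 or more. The calls were lost without SAMR1 1 year replicate 1 or 2 (brightest probe set in both strains), without SAMR1 1 year replicate 1 (dimmer one in SAMR1) and without any 1 of the 4 SAMP8 arrays (both in SAMP8), with differences of −0.49 to −1.30 over the fits that left out an array.

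**Figure D2:**
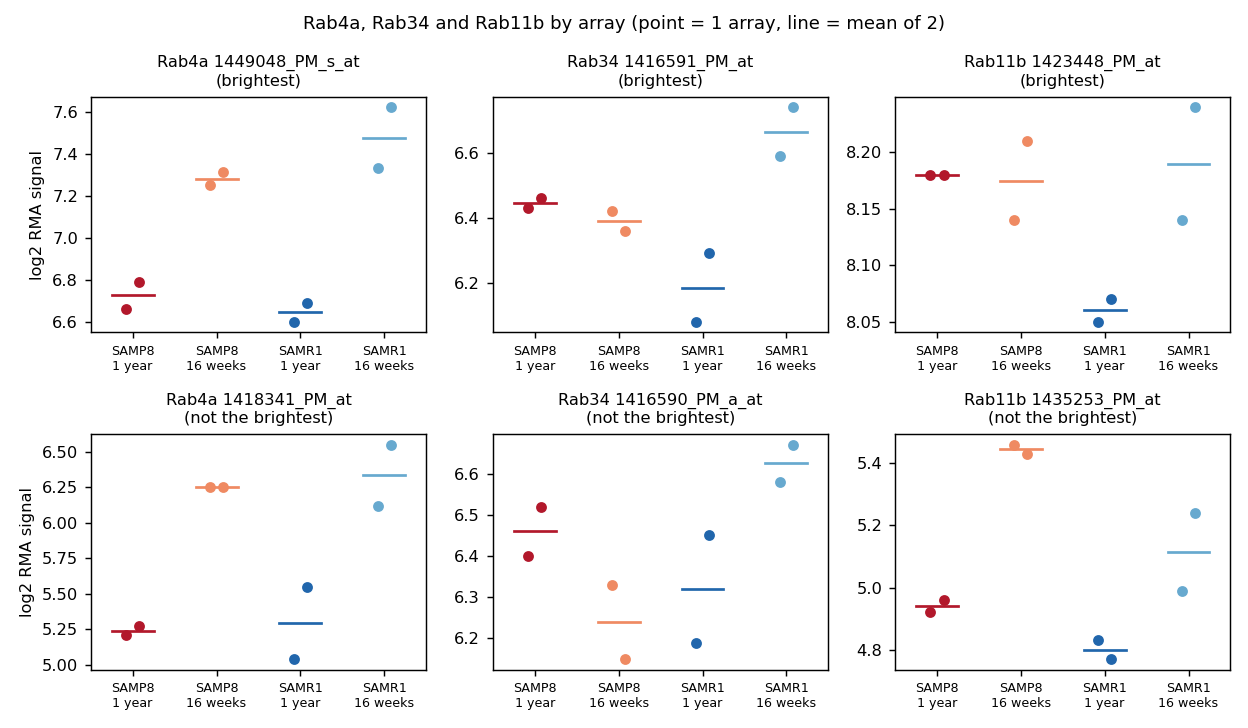
Log2 RMA signal of 2 probe sets each of Rab4a (left), Rab34 (middle) and Rab11b (right) in the 4 groups, where a point is 1 array and a line the mean of 2. Rab4a is lower at 1 year in both strains on both probe sets, Rab34 is lowest in 1-year SAMR1 on the brightest one, and Rab11b is lower at 1 year in both strains on its dimmer probe set and in SAMR1 alone on its brightest.

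Rab11b, a Rab of the slower route through the recycling endosome, fell in SAMP8 on 1 of its 3 probe sets. That probe set, 1435253_PM_at, read 4.92 and 4.96 in SAMP8 at 1 year and 5.46 and 5.43 at 16 weeks. The SAMR1 signals were 4.83 and 4.77 at 1 year and 4.99 and 5.24 at 16 weeks. The ages were apart in both strains. The difference was −0.51 in SAMP8 (SE 0.085, adjusted p = 0.0213 by limma) and −0.32 in SAMR1 (adjusted p = 0.0688). The brightest Rab11b probe set, 1423448_PM_at, read 8.18 and 8.18 in SAMP8 at 1 year and 8.14 and 8.21 at 16 weeks, with a difference of 0.01 (SE 0.065). The call was lost without any 1 of the 4 SAMP8 arrays.

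Rab14, which acts between Golgi and endosomes and in the return of receptors to the surface, rose in SAMR1 on 1 of 7 probe sets. On 1419243_PM_at it read 7.75 and 7.75 in SAMP8 at 1 year and 7.50 and 7.59 at 16 weeks. SAMR1 arrays gave 7.67 and 7.75 at 1 year and 7.14 and 7.25 at 16 weeks. The 2 SAMR1 16-week arrays were the lowest of the 8. The difference was 0.21 in SAMP8 (adjusted p = 0.123) and 0.52 in SAMR1 (SE 0.070, adjusted p = 0.0107, limma). The brightest probe set, 1419246_PM_s_at, read 10.22 to 10.36 on all 8 arrays, with age differences of 0 in SAMP8 and −0.01 in SAMR1 (SE 0.065). The call was lost without SAMR1 1 year replicate 1 or 2. Of the other genes of this group, Rab15, an inhibitor of early endocytic recycling, had the largest interaction of strain and age on a brightest probe set here (−0.35, SE 0.093, adjusted p = 0.459). It read 8.67 and 8.58 in SAMP8 at 1 year and 8.74 and 8.81 at 16 weeks, and 8.77 and 8.72 in SAMR1 at 1 year and 8.52 and 8.57 at 16 weeks.

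Promoters are shown for some of the genes whose signal changed with age on some probe sets, so that their start regions can be set side by side. The RefSeq table of mouse build GRCm38.p6 holds windows of 300 bases (250 before and 50 after the start). They cover 47 of the 58 genes, 58 windows in all. Rab4a, Rab2a and Rab38 have no entry in it, and the windows of Rab12 and Rab43 are not shown. Capitals mark a GC box (GGGCGG) or a CCAAT box (CCAAT) on either strand, and no marked motif overlapped another. Each window is written in the direction of transcription. The first listed start of Rab34 (chr11:78188177-78188476) held neither box and is not shown. The windows are chr2:35201071-35201370 (minus strand) for Rab14, chr12:3309920-3310219 (minus strand) for Rab10, chr17:65772703-65773002 (minus strand) for Rab31, chr11:78188498-78188797 (plus strand) for the second listed start of Rab34, and chr17:33760437-33760736 (minus strand) for Rab11b.
Rab14: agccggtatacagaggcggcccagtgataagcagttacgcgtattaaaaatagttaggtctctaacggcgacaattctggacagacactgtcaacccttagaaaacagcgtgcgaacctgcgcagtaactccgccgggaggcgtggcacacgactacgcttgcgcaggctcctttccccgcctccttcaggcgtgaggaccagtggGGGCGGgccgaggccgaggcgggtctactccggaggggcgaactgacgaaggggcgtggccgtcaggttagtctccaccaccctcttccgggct
Rab10: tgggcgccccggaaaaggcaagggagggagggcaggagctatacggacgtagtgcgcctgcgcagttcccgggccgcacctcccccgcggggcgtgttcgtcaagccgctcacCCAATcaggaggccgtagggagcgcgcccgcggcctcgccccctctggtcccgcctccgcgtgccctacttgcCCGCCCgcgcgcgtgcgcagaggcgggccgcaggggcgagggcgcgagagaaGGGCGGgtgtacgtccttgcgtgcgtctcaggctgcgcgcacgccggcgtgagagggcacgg
Rab31: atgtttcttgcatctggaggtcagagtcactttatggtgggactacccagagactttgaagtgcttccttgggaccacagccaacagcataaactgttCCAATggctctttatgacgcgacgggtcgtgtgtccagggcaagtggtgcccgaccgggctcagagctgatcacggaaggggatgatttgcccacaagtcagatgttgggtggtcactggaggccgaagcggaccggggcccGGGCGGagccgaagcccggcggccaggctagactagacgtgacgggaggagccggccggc
Rab34: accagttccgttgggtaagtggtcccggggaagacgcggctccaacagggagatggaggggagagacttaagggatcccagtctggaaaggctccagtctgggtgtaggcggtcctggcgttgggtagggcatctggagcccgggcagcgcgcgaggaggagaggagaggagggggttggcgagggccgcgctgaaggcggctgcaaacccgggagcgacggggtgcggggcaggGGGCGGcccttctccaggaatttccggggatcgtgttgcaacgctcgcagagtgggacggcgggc
Rab11b: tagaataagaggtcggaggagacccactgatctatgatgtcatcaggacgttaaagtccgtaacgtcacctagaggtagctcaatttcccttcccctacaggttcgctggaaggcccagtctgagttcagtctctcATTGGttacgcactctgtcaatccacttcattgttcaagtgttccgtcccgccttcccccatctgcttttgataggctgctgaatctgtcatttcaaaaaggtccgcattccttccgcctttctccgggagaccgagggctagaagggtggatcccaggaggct

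A GC box was found in 40 of the 58 Rab windows (69.0%, against 35.7% of the 32851 windows in the table), and a CCAAT box in 25 (43.1%, against 37.4%). The TATA box (TATAAA) was found in 4 (6.9%, against 13.6%). The E-box core (CACGTG) was found in 6 (10.3%, against 7.15%), and the cAMP response element (TGACGTCA) in 2 (3.45%, against 1.79%). The CLEAR element of lysosomal genes, a palindrome which holds the E-box core, was found in 3 windows (5.17%, against 0.326%), those of Rab5a, Rab21 and Rab24. These 3 genes, all of the endolysosomal system, had no probe set called in any comparison. The Rab windows were also richer in G and C (median 61.2%, against 52.7%). A match is a description of letters and not of a bound site.

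Among the Rabs of ER and Golgi traffic (16 genes, 42 probe sets), Rab2a gave the largest rise of any member, on probe sets other than its brightest. Rab2a is needed for traffic between ER and Golgi and for the delivery of dense-core vesicle and lysosomal cargo. Probe set 1419946_PM_s_at read 5.88 and 5.82 in SAMP8 at 1 year and 5.48 and 4.67 at 16 weeks. For SAMR1 the readings were 5.92 and 6.08 at 1 year and 5.06 and 4.68 at 16 weeks. All 4 arrays of 1-year-old mice were above all 4 of 16-week-old mice, with a wide gap between the 16-week SAMP8 arrays. The difference was 0.78 in SAMP8 (SE 0.23, adjusted p = 0.0872) and 1.13 in SAMR1 (SE 0.23, adjusted p = 0.0305, a ratio of 2.19) by limma.

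Probe set 1449676_PM_at of Rab2a read 6.22 and 6.04 in SAMP8 at 1 year and 5.62 and 5.25 at 16 weeks, a difference of 0.70 (SE 0.12, adjusted p = 0.0239, limma). Signals in SAMR1 were 6.05 and 6.24 at 1 year and 5.66 and 5.64 at 16 weeks, with a difference of 0.50 (adjusted p = 0.0563). Both strains were higher at 1 year with no overlap. Probe set 1418621_PM_at read 9.20 and 9.15 in SAMP8 at 1 year and 8.97 and 8.95 at 16 weeks (0.22, adjusted p = 0.145). In SAMR1 it read 9.02 and 9.19 at 1 year and 8.82 and 8.69 at 16 weeks (0.35, SE 0.078, adjusted p = 0.0410, limma). The brightest probe set, 1418622_PM_at, ran the other way by a small amount: 10.15 and 10.19 in SAMP8 at 1 year and 10.25 and 10.31 at 16 weeks, and 10.07 and 10.16 in SAMR1 at 1 year and 10.22 and 10.14 at 16 weeks. Its differences were −0.11 in SAMP8 and −0.07 in SAMR1 (SE 0.067, adjusted p of 0.367 and 0.609). The second brightest, 1419945_PM_s_at, differed by −0.07 and −0.05, 1418623_PM_at by 0.41 and 0.44 (adjusted p = 0.0696 and 0.0570), and the dimmest by 0 and 0.02. The call of 1418621_PM_at was kept in 1 of 8 fits that left out an array, that of 1419946_PM_s_at in 3 and that of 1449676_PM_at in 5. Differences in the fits for these 3 ranged from 0.27 to 1.32.

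**Figure D3:**
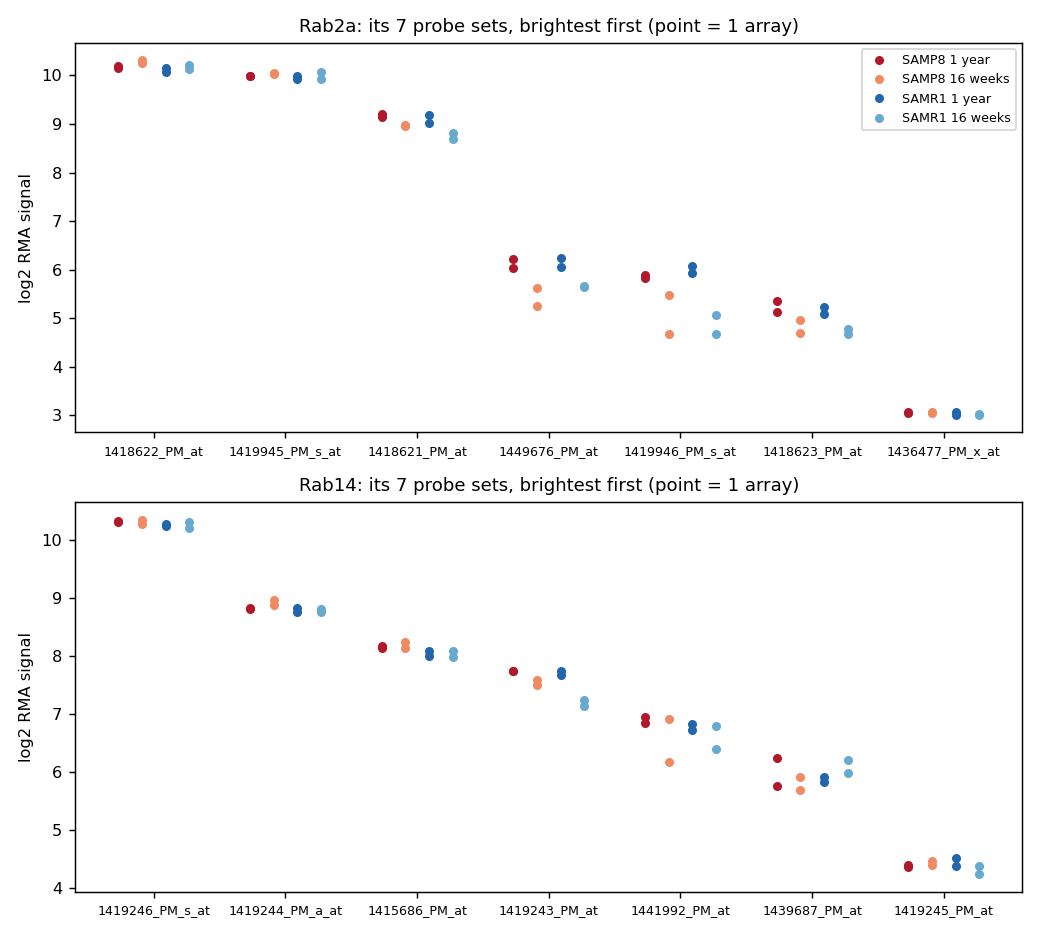
Log2 RMA signal of the 7 probe sets of Rab2a (top) and of Rab14 (bottom), brightest first, with 1 point per array and colours for the 4 groups. The brightest probe sets near 10 are level across groups, and the separation by age is on dimmer ones, such as 1419946_PM_s_at of Rab2a and 1419243_PM_at of Rab14.

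Rab34, a Golgi-associated Rab that positions lysosomes and acts in cilium formation, fell in SAMR1. Its brightest probe set, 1416591_PM_at, read 6.43 and 6.46 in SAMP8 at 1 year and 6.42 and 6.36 at 16 weeks. The SAMR1 signals were 6.08 and 6.29 at 1 year and 6.59 and 6.74 at 16 weeks. The 2 SAMR1 16-week arrays were the highest and the 2 SAMR1 1-year arrays the lowest of the 8. The difference was 0.06 in SAMP8 (SE 0.086, adjusted p = 0.755) and −0.48 in SAMR1 (SE 0.086, adjusted p = 0.0222, a ratio of 0.717) by limma. The other probe set, 1416590_PM_a_at, gave 0.22 in SAMP8 (adjusted p = 0.241) and −0.31 in SAMR1 (adjusted p = 0.117). The test of the difference between the strains' age changes did not pass for either probe set (0.54, SE 0.12, adjusted p = 0.389, and 0.53, SE 0.14, adjusted p = 0.477), so that an unequal change was not shown. The call in SAMR1 was lost without SAMR1 1 year replicate 1 or 2 and without SAMR1 16 weeks replicate 2 (−0.38 to −0.59 over the 8 fits). The hypothalamic sum was high in the same 2 SAMR1 16-week arrays as Rab34, mainly through Pmch and Avp and not through all 6 genes. Probe sets of Rab14 and Rab10 had low values in those arrays. The part of this sum was not tested.

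Rab43, which acts in ER to Golgi transport of receptors, rose in SAMP8 on the dimmest of its 3 probe sets. Probe set 1451670_PM_at read 3.89 and 3.76 in SAMP8 at 1 year and 3.52 and 3.54 at 16 weeks (0.30, SE 0.066, adjusted p = 0.0425, limma). SAMR1 arrays gave 3.72 and 3.74 at 1 year and 3.66 and 3.68 at 16 weeks (0.06, adjusted p = 0.637). These signals are below the array medians, and the brightest probe set, 1425333_PM_at, differed by 0.13 in SAMP8 (adjusted p = 0.317). The call was kept in 2 of 8 fits that left out an array, and it was lost after median centring, after quantile normalization and with the replicate block (adjusted p = 0.0520). Rab33a, a Golgi and vesicle Rab of neurons, had the largest SAMP8 age difference on a brightest probe set of this group. It read 7.24 and 7.30 in SAMP8 at 1 year and 7.57 and 7.59 at 16 weeks (−0.31, SE 0.075, adjusted p = 0.0519). For SAMR1 the readings were 7.09 and 7.19 at 1 year and 7.43 and 7.27 at 16 weeks (−0.21, adjusted p = 0.135).

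Among the Rabs of the early endosome (7 genes, 11 probe sets), Rab31 rose in SAMR1 on 1 of 2 probe sets. Rab31 acts between trans-Golgi and endosomes. Probe set 1431691_PM_a_at read 4.45 and 4.69 in SAMP8 at 1 year and 4.31 and 4.07 at 16 weeks (0.38, adjusted p = 0.0910). Signals in SAMR1 were 4.60 and 4.82 at 1 year and 4.08 and 4.06 at 16 weeks (0.64, SE 0.11, adjusted p = 0.0213, limma). The ages did not overlap in either strain. The brightest probe set, 1416165_PM_at, read 7.37 and 7.45 in SAMP8 at 1 year and 7.29 and 7.24 at 16 weeks, and 7.75 and 7.58 in SAMR1 at 1 year and 7.45 and 7.45 at 16 weeks. It differed by 0.15 in SAMP8 and 0.22 in SAMR1 (SE 0.074, adjusted p of 0.284 and 0.125). The call on the dimmer probe set was lost without SAMR1 1 year replicate 1 or 2. The brightest probe sets of the Rab5 isoforms, Rab20, Rab21 and Rab22a lay between −0.19 and 0.07 in SAMR1 and between −0.18 and 0.02 in SAMP8, with no call.

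Rab10, a Rab of polarised membrane delivery that supports axon growth and is a substrate of the kinase Lrrk2, rose in SAMR1 on the dimmest of 3 probe sets (group of 4 genes, 9 probe sets). Probe set 1422664_PM_at read 7.43 and 7.30 in SAMP8 at 1 year and 7.23 and 7.40 at 16 weeks (0.05, adjusted p = 0.773). In SAMR1 it read 7.33 and 7.35 at 1 year and 6.90 and 7.04 at 16 weeks (0.37, SE 0.084, adjusted p = 0.0438, limma). The 2 SAMR1 16-week arrays were the lowest of the 8. The brightest probe set, 1453095_PM_at, ran the opposite way, with 9.20 and 9.28 in SAMP8 at 1 year and 9.34 and 9.42 at 16 weeks, and 9.23 and 9.29 in SAMR1 at 1 year and 9.47 and 9.47 at 16 weeks. Its differences were −0.14 in SAMP8 and −0.21 in SAMR1 (SE 0.065, adjusted p of 0.241 and 0.0962). The call was kept in 3 of 8 fits that left out an array and lost after median centring.

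Of the Rabs of late endosome, lysosome and autophagy (6 genes, 10 probe sets), Rab12 rose in SAMR1. Rab12 directs receptors from recycling endosomes to lysosomes. Its single probe set, 1427992_PM_a_at, read 8.15 and 8.13 in SAMP8 at 1 year and 7.87 and 7.91 at 16 weeks (0.25, SE 0.065, adjusted p = 0.0620). The SAMR1 signals were 8.12 and 8.22 at 1 year and 7.87 and 7.93 at 16 weeks (0.27, SE 0.065, adjusted p = 0.0496, limma). All 4 arrays of 1-year-old mice were above all 4 of 16-week-old mice, and the strains differed by −0.03 at 1 year and −0.01 at 16 weeks. The adjusted p was just inside the threshold in SAMR1 and just outside it in SAMP8, and the call was lost in all 8 fits that left out an array. Rab9b, a late endosome to Golgi Rab, had the largest SAMR1 age difference on a brightest probe set of the group (−0.42, SE 0.16, adjusted p = 0.148), with 5.71 and 5.71 in SAMP8 at 1 year and 5.78 and 5.91 at 16 weeks, and 5.47 and 5.84 in SAMR1 at 1 year and 6.30 and 5.85 at 16 weeks. One array, SAMR1 16 weeks replicate 1, stood above the rest. The same array stood apart in the striatal and thalamic sums, and their part was not tested.

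Rab38 rose in SAMR1 (lysosome-related organelles, 3 genes, 4 probe sets). It is known for the transport of pigment enzymes to melanosomes. The brightest probe set, 1439628_PM_x_at, read 6.96 and 6.90 in SAMP8 at 1 year and 6.47 and 6.74 at 16 weeks (0.33, adjusted p = 0.0907). SAMR1 arrays gave 7.13 and 7.08 at 1 year and 6.57 and 6.73 at 16 weeks (0.46, SE 0.097, adjusted p = 0.0360, a ratio of 1.37, limma). All 1-year arrays were above all 16-week arrays. The suffix x marks a probe set whose probes can also bind other transcripts, and the other Rab38 probe set, 1417700_PM_at, had signals of 3.77 to 4.09 and differences of 0.19 in SAMP8 and 0.16 in SAMR1 (adjusted p of 0.189 and 0.247). The call was lost without SAMR1 1 year replicate 1 or 2, SAMR1 16 weeks replicate 1 and SAMP8 1 year replicate 1 or 2.

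The Rabs of regulated secretion and synaptic vesicles (7 genes, 21 probe sets) had no probe set called in any comparison in the limma fit of all arrays and probe sets. Over all 21 probe sets the age differences had both signs, from −0.38 to 0.345 in SAMP8 and from −0.395 to 0.315 in SAMR1. The brightest probe sets of the 7 genes had a median age difference of −0.18 in SAMP8 (−0.38 to 0.23) and −0.24 in SAMR1 (−0.40 to 0.11). The median over all genes was −0.03 in both strains. The largest was Rab3b, an isoform of the vesicle-docking Rab3 group, with 5.74 and 6.10 in SAMP8 at 1 year and 6.34 and 6.26 at 16 weeks, and 5.33 and 5.57 in SAMR1 at 1 year and 5.65 and 6.04 at 16 weeks. Its age differences were −0.38 in SAMP8 and −0.40 in SAMR1 (SE 0.15, adjusted p of 0.183 and 0.165). Rab27b, which acts in the docking of secretory vesicles, differed by −0.22 in SAMP8 (adjusted p = 0.237) and −0.39 in SAMR1 (SE 0.099, adjusted p = 0.0605) on its brightest probe set, and 1417214_PM_at gave −0.23 and −0.35. The other 2 of its 4 probe sets were of opposite sign, with 0.20 and 0.16 for 1443764_PM_x_at and 0.10 and 0.32 for 1417215_PM_at. In physiological aging 1417214_PM_at was called with the replicate block (adjusted p = 0.0405), and the brightest one when only probe sets above a mean of 5 were tested (adjusted p = 0.04995). The 2 genes of the cilium group (5 probe sets, Rab23 and Rab28) and the 4 other genes (6 probe sets) had no call either, with brightest differences of −0.21 to 0.07 in SAMP8 and −0.03 to 0.14 in SAMR1.

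**Figure D4:**
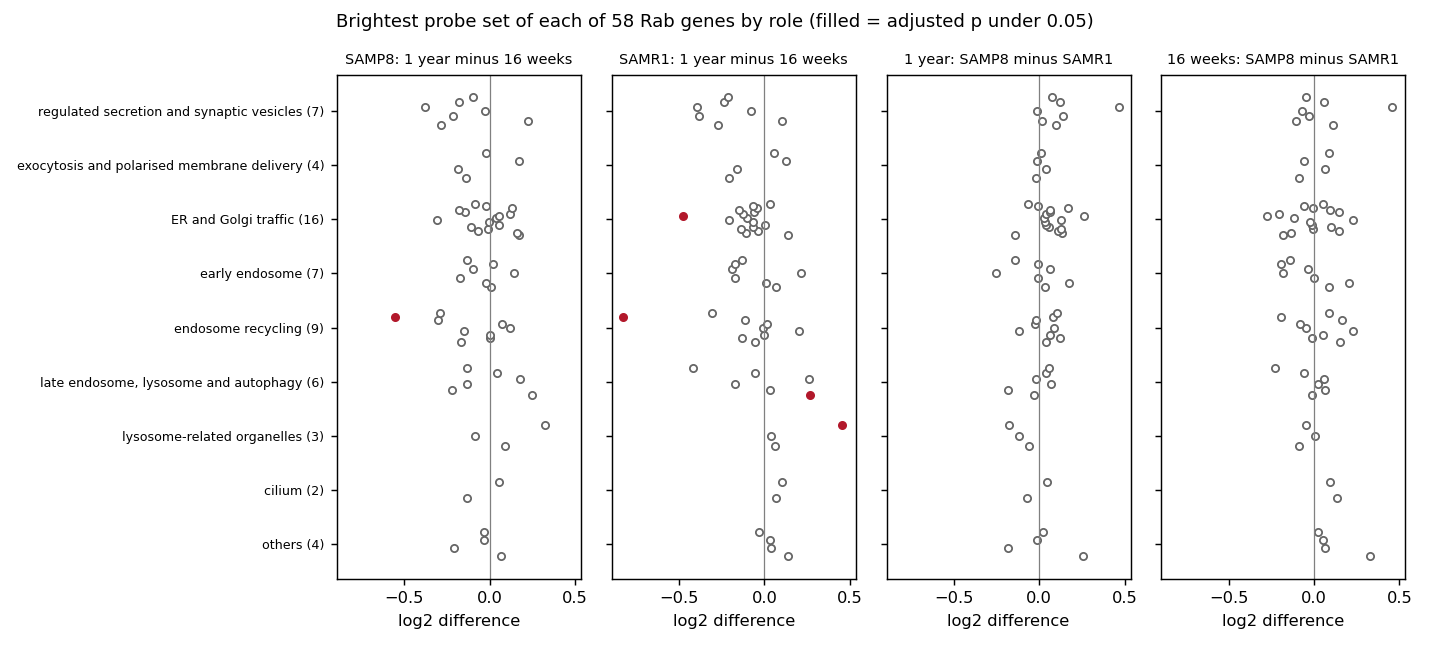
Log2 difference of the brightest probe set of each of the 58 Rab genes, grouped by role with the number of genes in parentheses, for the age change in SAMP8 and SAMR1 and for SAMP8 minus SAMR1 at 1 year and at 16 weeks. The filled points, adjusted p under 0.05, are Rab4a in SAMP8 and Rab4a, Rab34, Rab12 and Rab38 in SAMR1, and there are none between strains.

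The probe sets of a gene did not always agree in sign. Of the 34 genes with 2 or more probe sets, 22 in SAMP8 and 18 in SAMR1 had age differences of both signs. The 22 include Rab37, with −0.025 and 0. The median gap between the highest and lowest probe set of these 34 genes was 0.235 in SAMP8 and 0.2725 in SAMR1. The share with both signs among all genes was not computed, so these counts have no background. The gap between the highest and lowest probe set was above 0.5 for 4 genes in SAMP8 (Rab2a, Rab2b, Rab11b and Rab22a) and for 5 in SAMR1 (Rab2a, Rab2b, Rab10, Rab14 and Rab27b). Of the 70 probe sets that were not the brightest of their gene, 2 rose (2.86%) and 2 fell (2.86%) in SAMP8, against 2.82% and 2.86% of all such probe sets. In SAMR1, 5 rose (7.14%) and 1 fell (1.43%), against 4.18% and 2.44%. The called probe sets of Rab2a, Rab10, Rab11b, Rab14, Rab31 and Rab43 were not the brightest of their genes, and the difference between probe sets of a gene was not tested. On the brightest probe sets the 1-year arrays were also all above the 16-week arrays for Rab31 in both strains and for Rab43 in SAMP8. None of these differences passed (adjusted p of 0.284 and 0.125 for Rab31 in SAMP8 and SAMR1 and 0.317 for Rab43, limma). With 2 arrays per group, such separation was also seen for probe sets that were not called, and its share over all probe sets was not computed. Rab4a fell on both of its probe sets. Which transcript parts these probe sets cover was not analysed here.

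The age change ran much the same way in the strains. Over the 128 members the differences in SAMP8 and SAMR1, which share no arrays, had a Pearson correlation of 0.766 across probe sets, against 0.646 over all 45037, where probe sets of 1 gene are not independent. All 5 members called in SAMP8 had the same sign in SAMR1. Of the 10 called in SAMR1, 9 had the same sign in SAMP8, with Rab34 the exception. The same counts were not made over all called probe sets, so they are not read as a trait of the Rabs. A total of 2 probe sets, both of Rab4a, were called in both strains. Tested as an interaction of strain and age, 0 of 128 members were called (limma, smallest adjusted p = 0.316, against 0.00222% of all probe sets), and 10 (7.81%, against 6.92%) had an unadjusted p under 0.05.

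**Figure D5:**
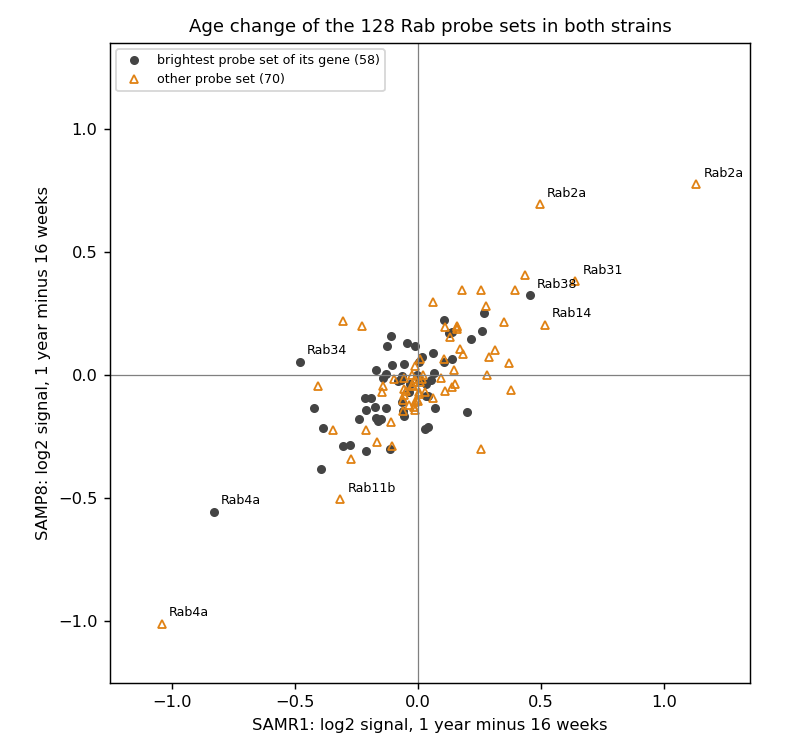
Log2 difference between 1 year and 16 weeks in SAMP8 (vertical) against SAMR1 (horizontal) for the 128 Rab probe sets, with filled circles for the brightest probe set of each gene and triangles for the other 70. Both Rab4a points lie at the lower left, the highest Rab2a point at the upper right, and Rab34 is negative only in SAMR1.

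Between strains no Rab probe set passed the test. At 1 year 0 of 128 were called (smallest adjusted p = 0.160, against 0.688% of all probe sets and 0.617% of genes on the brightest probe set), and 13 (10.2%, against 7.58%) had an unadjusted limma p under 0.05, with 7 higher and 6 lower in SAMP8. At 16 weeks 0 were called (smallest adjusted p = 0.0579, against 1.23% and 1.07%), and 23 (18.0%, against 14%) had an unadjusted p under 0.05, with 16 higher and 7 lower in SAMP8. All of these 13 and 23 also exceeded a fold of 1.1, against 7.57% and 14% of all probe sets. Differences ranged from −0.33 to 0.47 at 1 year and from −0.39 to 0.46 at 16 weeks.

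The largest strain differences were those of Rab3b, with 0.47 at 1 year (SE 0.15, adjusted p = 0.422) and 0.46 at 16 weeks (SE 0.15, adjusted p = 0.233), and the SAMP8 arrays were above the SAMR1 arrays of the same age at both ages. Rab40b, a Rab with a SOCS box that joins ubiquitin ligases, differed by 0.26 and 0.33 on its brightest probe set (adjusted p = 0.808 and 0.349). It read 7.70 and 7.87 in SAMP8 against 7.39 and 7.67 in SAMR1 at 1 year, and 7.75 and 7.69 in SAMP8 against 7.18 and 7.60 in SAMR1 at 16 weeks. Rab31 was lower in SAMP8 at 1 year on its brightest probe set by a value that did not pass (−0.26, SE 0.074, adjusted p = 0.318). The smallest adjusted p at 16 weeks belonged to 1419243_PM_at of Rab14 (0.35, SE 0.070), and 1422664_PM_at of Rab10 gave 0.35 (SE 0.084, adjusted p = 0.114). The comparison at 16 weeks shares its SAMR1 arrays with physiological aging, where these 2 probe sets rose, so that the values are not independent. Without SAMR1 16 weeks replicate 2, SAMR1 at 16 weeks is left with replicate 1. Replicate 2 had a choroid plexus sum of 8.64, near those of the SAMP8 16-week arrays. Replicate 1 stood apart in the striatal and thalamic sums, and in the choroid plexus sum among the 16-week arrays only. In the fit without replicate 2, probe sets of Rab14, Rab3c, Rab7 and Rab11b were higher in SAMP8 at 16 weeks by 0.41 to 0.47. They were named after their values were seen, because they passed in that fit. The share of all probe sets that passed in it was not computed.

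The proteins that switch and serve the Rabs were read on the brightest probe set of each gene. Over all genes read in this way, 1.41% rose and 3.68% fell in SAMP8, and 1.39% rose and 3.78% fell in SAMR1, so that falls outnumbered rises among all genes as well. Of 48 exchange factors measured, 0 rose and 5 fell in SAMP8 and 1 rose and 4 fell in SAMR1 (10.4% in each strain). Ankrd27, the exchange factor of Rab21 that also binds Rab32 and Rab38, averaged 6.09 ± 0.014 in SAMP8 at 1 year and 6.58 ± 0.021 at 16 weeks, and 6.29 ± 0.042 in SAMR1 at 1 year and 6.69 ± 0.12 at 16 weeks (SD, n = 2). Its differences were −0.49 in SAMP8 (adjusted p = 0.0176) and −0.40 in SAMR1 (adjusted p = 0.0234) by limma. Mon1a, a subunit of the Rab7 exchange factor, fell by 0.38 in SAMP8 (adjusted p = 0.0363) and by 0.37 in SAMR1 (adjusted p = 0.0387), and Vps9d1, which carries the exchange domain of Rab5 activators, fell by 0.32 in SAMR1 (adjusted p = 0.0472). Rabif, a chaperone of exocytic Rabs, fell by 0.45 and Rin1, a Rab5 exchange factor of neurons, by 0.43 in SAMP8. Rin2, another Rab5 exchange factor, was the riser, with 0.63 in SAMR1 (SE 0.085, adjusted p = 0.0108, limma).

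Of 39 GTPase-activating proteins measured, 0 rose and 2 fell in SAMP8 (5.13%) and 0 rose and 3 fell in SAMR1 (7.69%), against 3.68% and 3.78% falling among all genes. Tbc1d10a, a GAP of Rab35 and Rab27a, averaged 4.79 ± 0.064 in SAMP8 at 1 year and 5.24 ± 0.028 at 16 weeks, and 4.74 ± 0.021 in SAMR1 at 1 year and 5.16 ± 0.021 at 16 weeks (SD, n = 2). It fell by 0.46 in SAMP8 (adjusted p = 0.0153) and by 0.42 in SAMR1 (adjusted p = 0.0144) by limma. Tbc1d30 fell by 0.83 in SAMP8 (SE 0.16, adjusted p = 0.0296), with 5.18 ± 0 at 1 year against 6.01 ± 0.43 at 16 weeks (SD, n = 2), a wide spread at 16 weeks. Tbc1d7, better known as a subunit of the TSC complex, fell by 0.49 in SAMR1 (adjusted p = 0.0340). Of the 9 genes of prenylation and GDI, 2 fell in SAMP8, where 3.68% of all genes fell, and 0 passed in SAMR1. They were Chml, a Rab escort protein (−0.48, adjusted p = 0.0470), and Zmpste24, a protease of prenylated proteins that is better known for processing lamin A (−0.44, adjusted p = 0.0371).

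Of 70 Rab effectors measured, 0 rose and 3 fell in SAMP8 (4.29%) and 2 rose and 4 fell in SAMR1 (8.57%). Among all genes 1.41% rose and 3.68% fell in SAMP8, near the share of effectors, and 1.39% rose and 3.78% fell in SAMR1. Lrrk2, a kinase that binds Rab29 and phosphorylates Rab8 and Rab10, averaged 6.17 ± 0.19 in SAMP8 at 1 year and 6.83 ± 0.0071 at 16 weeks, with a difference of −0.66 (SE 0.12, adjusted p = 0.0244, limma). In SAMR1 it averaged 6.56 ± 0.021 at 1 year and 6.23 ± 0.23 at 16 weeks (SD, n = 2), and was not called. Ehbp1, an effector of Rab8 and Rab10, fell by 0.32 in SAMP8 (adjusted p = 0.0381) and by 0.29 in SAMR1 (adjusted p = 0.0482). In SAMR1, Rufy3 rose by 0.46 (adjusted p = 0.0440) and Erc1 by 0.40 (adjusted p = 0.0296), and Appl2, a Rab5 effector, fell by 0.44 (adjusted p = 0.0144). Between strains, 1 effector passed, at 16 weeks: Pik3c3, the class III phosphatidylinositol 3-kinase of early endosomes, averaged 7.07 ± 0.028 in SAMP8 and 6.57 ± 0.042 in SAMR1 (SD, n = 2), a difference of 0.50 (SE 0.065, adjusted p = 0.0108, limma), where 1.07% of all genes were called. The median age differences of the 4 lists were −0.06 to −0.12 in SAMP8 and −0.05 to −0.15 in SAMR1, against −0.03 over all genes in both strains.

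Genes of other small GTPase families were also read on their brightest probe sets. Of 27 Arf, Arl and Sar genes, 0 passed in SAMP8 and 2 fell in SAMR1. Of 33 Ras genes, 1 rose and 2 fell in SAMP8, and 1 rose and 1 fell in SAMR1. Among all genes 1.41% rose and 3.68% fell in SAMP8, and 1.39% rose and 3.78% fell in SAMR1. Neither family had a gene called between strains at either age. The Rab family, with 1 of 58 genes called in SAMP8 and 4 of 58 in SAMR1, was not tested against them.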

How the data were processed

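Cerebral cortex RNA of male SAMP8 and SAMR1 mice at 1 year and 16 weeks was hybridised to MG-430 PM array strips, with 2 mice and 2 arrays per group by the study's methods. The sources differ on the labelling kit. The authors deposited log2 signals normalized by robust multichip averaging (RMA) in Expression Console, and the same log2 values as a series table; the genome build is not given in the sources used here. RMA puts all arrays on 1 distribution, so a shift of all probe sets together is not visible. Tools named in the submitters' processing notes are RMA, limma and the Transcriptome Analysis Console. Further deposited tables, which hold group means and the authors' fold changes and p-values, were not used.

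Of 45077 probe sets, 40 controls were left out. Symbols are those of the deposited table: 36109 probe sets carry 1 symbol, 1236 several, 7628 none and 64 a date, left unnamed. A linear model with a mean per group was fitted over the 8 arrays with limma 3.58.1 (R 4.3.3; 4 residual and 4.52 prior degrees of freedom), with Benjamini-Hochberg adjustment over 45037 probe sets, and a probe set was called at an adjusted p under 0.05. The fit was tested on simulated data. With 2 arrays per group, precision is limited, and, since no source says which mouse each array holds, a p-value reflects array-to-array spread, which may be technical. The members, roles and gene lists were chosen with earlier results of these data known. Of 328 list genes 318 were matched. Named genes are the called members, the brightest probe set of each of these genes, the member of each role group with the largest difference on its brightest probe set in a comparison, and up to 4 called genes per list; others are marked. Rab role groups are from textbook knowledge. Alternatives were a fit of the 4 arrays compared, an intensity trend, the replicate number as block, array weights, median centring, quantile normalization, a mean above 5, the brightest probe set per gene, the series table, the study's threshold (p under 0.05, fold above 1.1), the methods' one-way ANOVA and each array left out. Promoter windows came from RefSeq (GRCm38.p6). Figures were drawn with matplotlib 3.10.9.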

Additional observations from a re-analysis of the deposited data

How the results depend on the processing

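The counts of called Rab probe sets (5 in accelerated aging, 10 in physiological aging, 0 in late events, early events and the interaction) depended on the setting, and no direction was reversed. In a limma fit of only the 4 arrays compared there were 3 and 0 calls for the age changes in SAMP8 and SAMR1, with fewer degrees of freedom. Testing only the brightest probe set of each gene gave 2 and 5. The study's threshold gave 30, 41, 13, 23 and 10 in accelerated aging, physiological aging, late events, early events and the interaction. The methods' one-way ANOVA at that threshold gave 17, 18, 6 and 12 in the first 4, and after Benjamini-Hochberg adjustment 0 in each. Array weights gave 1 call in late events, 1455064_PM_at of Rab36, lower in SAMP8 (−0.28, adjusted p = 0.0459), named after its value was seen. With 1 array left out, which leaves a group whose lone array is assumed to vary like the others, counts ran from 0 to 10 in accelerated aging, 0 to 11 in physiological aging, 0 to 4 in early events, and 0 to 0 in late events and the interaction. Intensity trend, quantile normalization, median centring, the mean above 5 and the series table moved no count by more than 2. Of the 15 calls, 15 were kept with the intensity trend, 14 with array weights, 14 with quantile normalization, 12 with median centring and 13 with the replicate block. Shares called over all probe sets were not computed for the alternative fits, and the cause of these changes was not tested.

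Arrays with the same replicate number showed little shared deviation (correlations of their deviations −0.0863 to 0.196). Pairing by number was thus not seen, but with 2 arrays per group these correlations cannot exclude it. With the replicate block, 5 members were called in accelerated aging, 12 in physiological aging and 0 in the other 3 tests, with Rab12 and Rab43 lost. New in physiological aging were 1417214_PM_at of Rab27b (adjusted p = 0.0405) and 1420899_PM_at of Rab18 (adjusted p = 0.0472), and Rab4b was called in both strains (−0.29 in SAMP8, adjusted p = 0.0431, and −0.31 in SAMR1, adjusted p = 0.0355). Rab18 and Rab4b were named after their values were seen.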
